A study of Mus musculus with 47 samples.

Results

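The 35 genes described here are antiviral interferon-stimulated genes, chosen by name and known function with earlier results of these data known. Each was found once in every RNA-seq table of the series, among 51912 genes listed for bone marrow-derived macrophages (BMDMs) and 12771, 23772, 22599 and 22863 genes listed in the 4 tables of the cell lines. All 35 passed the filter on low values in each of the 11 comparisons, so none is left out of any count below. The smallest value behind a fold change was 82 counts, for Ifi44 in untreated Zmynd8 cKO BMDMs.

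Type I interferon binds its receptor and activates the kinases Jak1 and Tyk2, which phosphorylate STAT factors. ISGF3, a complex of such factors with Irf9, binds a short promoter element, the interferon-stimulated response element (ISRE) and turns on genes such as those studied here. In macrophages, lipopolysaccharide (LPS, a bacterial wall component) acts through Tlr4 and induces interferon-beta, so that this gene set follows LPS at a second step, whereas interleukin-4 (IL-4) drives alternative activation through Stat6. The products detect, bind, cut or modify viral nucleic acids, starve viruses of nucleotides, or hold virus particles at membranes.

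The study asked what ZMYND8, a chromatin reader protein, does to gene expression in macrophages. BMDMs came from C57BL/6 mice: WT animals, per the methods Zmynd8 fl/fl littermates, and Zmynd8 cKO animals, Zmynd8 fl/fl with a heterozygous Lyz2-Cre allele that deletes floxed exons in myeloid cells. All BMDMs were grown in M-CSF and were left untreated (NT) or given LPS at 100 ng/ml or IL-4 at 20 ng/ml for 6 h, the treatments being taken from the methods. The other 6 libraries are labelled Raw264.7, a mouse macrophage-like cell line, with CRISPR knockout delivered by lentivirus. They are Zmynd8 KO, Zmynd8 KO with WT Zmynd8 put back (WT Zmynd8), Zmynd8 KO with a ZMYND8 whose acidic residues in the disordered region were changed to alanine (D/E-A), p65 KO, p65 KO with WT p65 put back (WT p65) and p65 KO with p65 K122R put back (K122R). The 3 p65 lines are labelled as LPS-treated, the Zmynd8 lines carry no treatment of their own in the labels, the study's text gives LPS for the RNA-seq of WT Zmynd8 and D/E-A, and whether a line is 1 clone is not given in the sources used here. The values used for WT p65 stand under a column head that gives only WT and LPS, without p65 KO.

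Every condition has 1 library, and per the methods 3 biological replicates were mixed before each BMDM library was made. No difference below therefore has a replicate check. The 95% limits given with fold changes are exact binomial limits on the reads and cover counting error only, since reads are not independent molecules. BMDM levels are given as CPM, a count scaled to the total of its library. Calls in BMDMs needed 1.2-fold between genotypes, or 2-fold between treatments, and a Benjamini-Hochberg adjusted p under 0.05 from an exact binomial test on the reads of the 2 libraries. That test compares 2 libraries, not 2 conditions. In the cell lines 1.2-fold sufficed, with no test.

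Library totals were 22597408 to 28386612 counts in BMDMs and 15127110 to 21042628 reads in the cell lines. Zmynd8 counts did not separate the genotypes (87.1, 79.0 and 128 CPM in WT NT, LPS and IL-4, and 81.5, 86.8 and 151 CPM in cKO), which checks nothing about a deletion of a few exons. Lyz2, where the Cre allele sits, stood at 10950, 6902 and 8941 CPM in WT and at 7202, 2892 and 5245 CPM in cKO. Rela, the p65 gene, had 765 reads in p65 KO, 1601 in WT p65 and 5850 in K122R. Zmynd8 had 485 reads in WT Zmynd8 and 497 in D/E-A, and its value in Zmynd8 KO, 116, was the only value of that library that was not a whole number of reads. All 12 macrophage markers were found in every BMDM library and in the 3 Zmynd8 lines. These 3 lines stood apart from the p65 lines: Xist had 7109 to 8467 reads against 0 to 3, and 9 neutrophil markers, led by S100a9 and Ngp, summed to 10451 CPM in WT Zmynd8, 7023 CPM in Zmynd8 KO and 4464 CPM in D/E-A, against at most 0.319 CPM in the p65 lines. The 6 B cell markers, led by Cd79b, were all found in these 3 lines, at a sum of 204 CPM in WT Zmynd8 and in D/E-A and 150 CPM in Zmynd8 KO, against 5.95 to 8.83 CPM for the 4 listed in the p65 lines. Xist is transcribed from an inactive X chromosome and Raw264.7 comes from a male mouse, so the 3 Zmynd8 libraries go against their Raw264.7 label and are called by their labels only. The 18S ribosomal RNA gene Rn18s-rs5 took 13.7% of reads in WT Zmynd8, 11.1% in Zmynd8 KO and 6.50% in D/E-A. In BMDMs the 9 neutrophil markers summed to 102 and 119 CPM in NT, 13.5 and 19.3 CPM after LPS, and 391 and 525 CPM after IL-4 (WT and cKO). Mmp8 led in NT, with 2612 and 2630 counts, and 3 of the 9 markers reached 10 counts in each NT library. After IL-4 all 9 did, led by S100a9. The B cell markers summed to at most 17.2 CPM in BMDMs. Xist stood at 739.7 and 323 CPM in NT, 246 and 429 CPM after LPS, and 1108 and 1057 CPM after IL-4 (WT and cKO), and its part in the results was not tested.

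The genes lie on 12 chromosomes, and 17 of them sit in 6 groups whose neighbours are at most 200 kb apart (mm10, the positions in the deposited tables). Ifit2, Ifit3, Ifit3b and Ifit1 span chr19:34550549-34650009, Oas2, Oas3, Oas1g and Oas1a span chr5:120730333-120907544, and Oasl2 and Oasl1 span chr5:114896934-114937912. Rsad2 and Cmpk2 are neighbours at chr12:26442743-26479837, Mx1 and Mx2 at chr16:97447035-97560901, and Parp14, Dtx3l and Parp9 at chr16:35831892-35972621. Dtx3l and Parp9 overlap by 558 bases on opposite strands, and Ifit3 with Ifit3b and Oas1a with Oas1g are close paralogs whose reads the counting could split, which was not measured here.

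A reference promoter window (RefSeq, GRCm38.p6, 250 bases before to 50 after the gene start) was found for 26 of the 35 genes, not for Oas2, Mx1, Mx2, Usp18, Dhx58, Rtp4, Zbp1, Parp9 and Parp14. The ISRE core GAAANNGAAA, on either strand, was present in 13 of these 26 genes (13 of their 31 windows, 41.9%) and in 3.44% of all 32851 windows. These were Bst2, Ddx58, Eif2ak2, Ifih1, Ifit1, Ifit3, Ifit3b, Ifitm3, Isg15, Oas1a, Oas1g, Oas3 and Rsad2. The GAS core, TTCNNNGAA, another element of interferon-responsive promoters, was in 29.0% of the members' windows against 8.3% of all, and the kB consensus, the element of NF-kB, in 19.4% against 8.46%. Such matches describe the letters and are not evidence of binding. The stretches below, 200 bases each from 190 bases before the start, are shown because they hold the ISRE in genes the results turn on, and capitals mark the ISRE cores.
Ifit1, chr19:34640699-34640898, plus strand: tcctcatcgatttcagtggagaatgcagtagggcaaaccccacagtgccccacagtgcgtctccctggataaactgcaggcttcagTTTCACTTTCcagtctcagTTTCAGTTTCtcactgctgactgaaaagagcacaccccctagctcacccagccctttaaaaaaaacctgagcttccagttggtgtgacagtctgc
Ifit3, chr19:34583339-34583538, plus strand: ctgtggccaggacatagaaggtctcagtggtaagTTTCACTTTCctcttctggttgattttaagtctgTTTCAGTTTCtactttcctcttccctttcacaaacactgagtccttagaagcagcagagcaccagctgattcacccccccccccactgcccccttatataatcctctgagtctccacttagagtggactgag
Ifit3b, chr19:34607767-34607966, plus strand: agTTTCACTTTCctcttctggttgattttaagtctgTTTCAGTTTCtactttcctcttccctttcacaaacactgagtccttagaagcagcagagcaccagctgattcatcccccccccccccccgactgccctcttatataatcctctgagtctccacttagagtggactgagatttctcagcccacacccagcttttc
Rsad2, chr12:26456443-26456642, minus strand: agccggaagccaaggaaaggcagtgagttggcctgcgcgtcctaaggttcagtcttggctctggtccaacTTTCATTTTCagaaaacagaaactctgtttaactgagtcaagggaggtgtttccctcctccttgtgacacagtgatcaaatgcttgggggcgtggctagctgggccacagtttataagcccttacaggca
Isg15, chr4:156200809-156201008, minus strand: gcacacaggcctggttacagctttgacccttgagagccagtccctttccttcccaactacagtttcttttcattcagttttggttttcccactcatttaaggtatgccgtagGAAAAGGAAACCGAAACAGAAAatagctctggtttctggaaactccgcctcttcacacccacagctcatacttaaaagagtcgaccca
Bst2, chr8:71537463-71537662, minus strand: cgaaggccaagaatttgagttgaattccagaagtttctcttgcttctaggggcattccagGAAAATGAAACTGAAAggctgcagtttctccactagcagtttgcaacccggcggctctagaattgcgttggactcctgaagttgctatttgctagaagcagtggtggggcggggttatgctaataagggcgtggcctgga
Ifit3 and Ifit3b carry 2 cores each, the first beginning 156 bases before the start in Ifit3 and 188 bases before it in Ifit3b. Isg15 holds 3 cores that overlap each other, beginning 78, 72 and 66 bases before the start. Bst2 holds 2 that overlap, at 130 and 124 bases, Ifit1 has 2 at 104 and 85 bases, and Rsad2 has 1 at 120 bases. The Bst2 window also holds the kB consensus, which the other 5 do not.

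As a group, the 35 genes made up 0.902% of counts in WT NT, 0.324% in cKO NT, 5.56% in WT LPS, 5.54% in cKO LPS, 0.437% in WT IL-4 and 0.685% in cKO IL-4. The exact 95% binomial intervals were narrow at this depth, 0.322% to 0.326% in cKO NT and 5.53% to 5.55% in cKO LPS. LPS libraries were the highest for every gene: both stood above the other 4 libraries for 35 of 35. Below them, cKO NT was under WT NT for 35 of 35 genes and cKO IL-4 was over WT IL-4 for 35 of 35, so that the order of the genotypes was opposite in the untreated and the IL-4 libraries. WT NT was the highest of the 4 libraries without LPS for 23 genes. Rsad2 alone made up 20.4% of the members' counts in WT LPS and 24.0% in cKO LPS, and 3.02% in cKO NT.

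**Figure D1:**
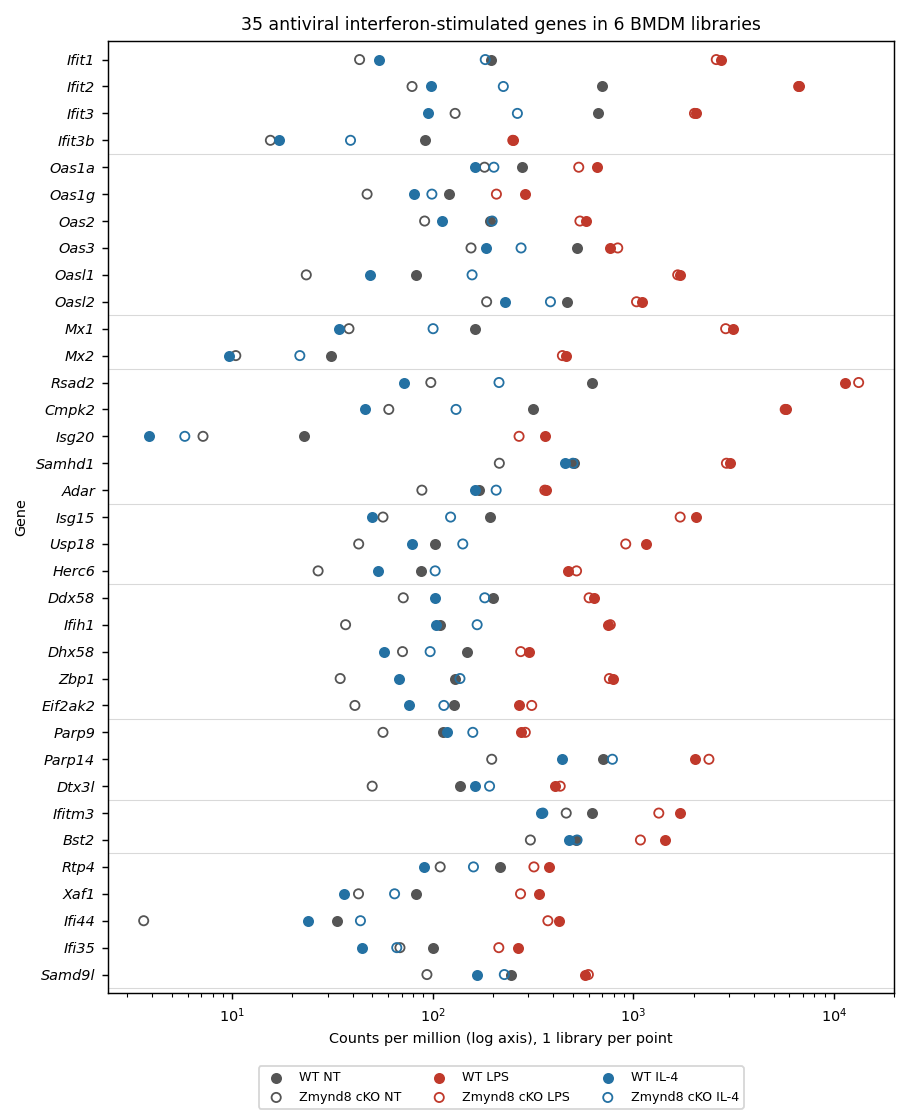
CPM (log axis) of the 35 genes in the 6 BMDM libraries, 1 point per library, filled for WT and open for Zmynd8 cKO, with lines between role groups. The 2 LPS libraries (red) lie to the right of all others for each gene, and the open NT points lie to the left of the filled NT points for all 35.

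Per length, in TPM, the length-scaled values of the deposited tables, the membrane proteins Ifitm3 and Bst2 led the set in all 4 libraries without LPS. In WT NT, Ifitm3 had 2131 TPM, Bst2 1372 TPM and Ifit3 623 TPM, and Ifi44 was lowest with 24.7 TPM. In WT LPS, Isg15 had 5578 TPM, Ifitm3 5513 TPM and Rsad2 4245 TPM, and Eif2ak2 was lowest with 90.5 TPM. In cKO LPS the leading genes were Rsad2 with 5276 TPM, Isg15 with 4916 TPM and Ifitm3 with 4584 TPM.

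In untreated cells, all 35 genes were called lower in Zmynd8 cKO than in WT BMDMs and none higher, against 25.9% of 12463 tested genes called lower and 21.7% called higher. The median log2 fold change of the members was -1.48 (median of their 95% limits -1.64 to -1.34), a level 2.80-fold lower, and that of all tested genes was -0.01. Of the 35, 27 were called lower at a 2-fold rule, against 2.86% of tested genes. In edgeR, when a biological coefficient of variation of 0.2 was assumed, 21 were called lower, against 1.54%. In bulk libraries fewer cells of a type and less RNA per cell cannot be told apart.

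The IFIT proteins, which bind foreign RNA and block its translation, showed the largest family difference, with a median of -2.42. Ifit2 stood at 698 CPM in WT NT and 78.9 CPM in cKO NT, 6715 and 6671 CPM after LPS, and 97.9 and 225 CPM after IL-4 (WT and cKO). Untreated cKO was thus the lowest of the 6 libraries and the 2 LPS libraries were nearly equal. The log2 fold change of cKO against WT in NT was -3.13 (95% limits -3.20 to -3.06), 8.74-fold lower and the lowest of the 35. Ifit1, Ifit3 and Ifit3b were lower by 4.42-, 5.10- and 5.63-fold.

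Rsad2 encodes viperin, which makes a chain-terminating nucleotide, and its neighbour Cmpk2 a nucleotide kinase of mitochondria. Rsad2 stood at 621 CPM in WT NT, 97.9 in cKO NT, 11330 in WT LPS, 13284 in cKO LPS, 72.3 in WT IL-4 and 214 CPM in cKO IL-4. Its log2 fold change in NT was -2.65 (95% limits -2.72 to -2.59). Cmpk2 followed with -2.37, from 318 to 60.4 CPM. The other enzymes of nucleic acids were called lower by less: the exonuclease gene Isg20 by 2.92-fold, the dNTP hydrolase gene Samhd1 by 2.36-fold and the RNA editing gene Adar by 1.92-fold.

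Ifi44, whose product limits virus replication, was the second lowest of the set. It had 879 counts in WT NT (33.5 CPM) and 82 in cKO NT (3.63 CPM), a log2 fold change of -2.90 (95% limits -3.17 to -2.63). These were the widest limits among the 3 lowest genes. Of the MX genes, dynamin-like GTPases that trap viral nucleoproteins, Mx1 fell from 162 CPM in WT NT to 38.3 CPM in cKO NT (-2.05, 95% limits -2.16 to -1.95) and Mx2 from 31.0 to 10.4 CPM.

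The OAS genes encode enzymes that make oligoadenylates, the activators of RNase L, and the related OASL proteins. All 6 were called lower, from -1.77 for Oasl1 (82.3 and 23.5 CPM in WT and cKO NT) through -1.74 for Oas3, -1.34 for Oas1g, -1.33 for Oasl2 and -1.07 for Oas2 to -0.62 for Oas1a. How reads were split between the paralogs Oas1a and Oas1g was not measured here, so their unequal differences are uncertain. The 5 sensors were lower by 2.08- to 3.67-fold: Zbp1, which binds Z-form nucleic acids, -1.87, the kinase PKR gene Eif2ak2 -1.62, the MDA5 gene Ifih1 -1.53, the RIG-I gene Ddx58 -1.47 and the LGP2 gene Dhx58 -1.05. Ifih1 stood at 108 CPM in WT NT and 36.8 CPM in cKO NT (95% limits of the log2 fold change -1.64 to -1.42).

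Isg15, the ubiquitin-like protein that is conjugated to newly made proteins, stood at 193 CPM in WT NT and 56.6 CPM in cKO NT, a log2 fold change of -1.75 (95% limits -1.84 to -1.67). Herc6, a ligase for Isg15, was at -1.66 and Usp18, which removes Isg15 and damps the receptor, at -1.25. The ADP-ribosyltransferase gene Parp14 went from 706 to 197 CPM (-1.84, 95% limits -1.88 to -1.79), and the partners Dtx3l and Parp9 were at -1.44 and -0.99. Samd9l, a restriction factor of poxviruses, was at -1.38 (95% limits -1.45 to -1.31), from 245 to 93.6 CPM. Among the smallest differences were those of Ifitm3, which blocks fusion of virus and cell membranes, at -0.43 (95% limits -0.47 to -0.40), of Ifi35 at -0.53, of Bst2, the tetherin gene, at -0.75, and of Xaf1 and Rtp4 at -0.94 and -0.98. Ifitm3, at 626 CPM in WT NT and 463 CPM in cKO NT, was 1.35-fold lower.

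**Figure D2:**
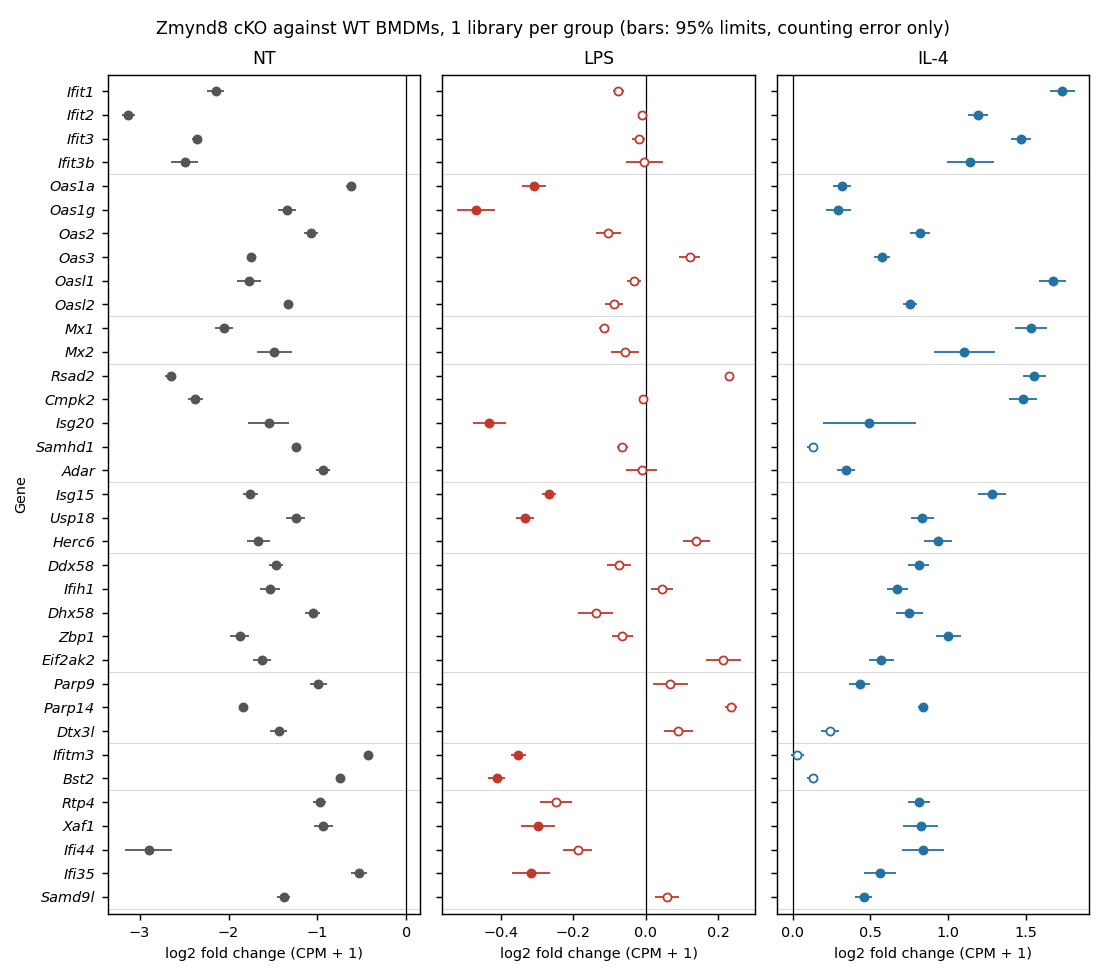
Log2 fold change (CPM + 1) of Zmynd8 cKO against WT for each gene in NT, LPS and IL-4, 1 library per group, on 3 different axes. Bars are 95% limits for counting error only, filled points were called. All 35 points lie left of 0 in NT, 9 filled points lie left of 0 in LPS, and all 35 lie right of 0 in IL-4.

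After LPS, 9 of the 35 genes were called lower in cKO, none higher, and 26 were not called, against 8.76% of 12386 tested genes called lower and 17.1% called higher. None of the 9 was called at a 2-fold rule or in edgeR when 0.2 was taken as the biological coefficient of variation (0 members in each case, against 0.331% and 0.121% of tested genes called lower). Scaled by median ratios, the calls over all genes were 52.9% higher instead of 66.1%, and 10 members were called lower. The median of the members was -0.07 and that of all genes 0.03. The 9 were Oas1g (-0.47), Isg20 (-0.43), Bst2 (-0.41), Ifitm3 (-0.35), Usp18 (-0.33), Ifi35 (-0.32), Oas1a (-0.31), Xaf1 (-0.30) and Isg15 (-0.27). The largest difference, that of Oas1g, was 1.38-fold.

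Oas1g had 288 CPM in WT LPS and 208 CPM in cKO LPS, with 95% limits of the log2 fold change of -0.52 to -0.42. Isg20 had 364 and 269.6 CPM (-0.48 to -0.39) and Bst2 1445 and 1086 CPM (-0.44 to -0.39). Both membrane restriction factors, Bst2 and Ifitm3 (1711 and 1340 CPM), were thus lower in cKO, as was Isg15 (2062 and 1713 CPM). No member of the IFIT, MX, sensor or PARP groups was called. Ifit2 stood at -0.01 (95% limits -0.02 to 0.00), Oasl1 at -0.03 with 1704 and 1665 CPM, Mx1 at -0.12 with 3128 and 2887 CPM, and Ifih1 at 0.04, a sign that turned (-0.01) under median ratios.

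Rsad2 took the most counts of the set, 11330 CPM in WT LPS and 13284 CPM in cKO LPS, and a log2 fold change of 0.23 (95% limits 0.22 to 0.24). It was just below the fold rule, as were Parp14 with 2025 and 2382 CPM (0.23, 95% limits 0.22 to 0.25) and Eif2ak2 with 0.21. Below the rule on the other side stood Rtp4 with -0.25 and Ifi44 with -0.19. Samd9l was at 0.06, Herc6 at 0.14 and Oas3 at 0.12.

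After IL-4, 31 genes were called higher in cKO than in WT and none lower, against 13.8% of 13245 tested genes called higher and 10.5% called lower. The median was 0.81 (median of the limits 0.71 to 0.88), 1.75-fold higher, against 0.01 over all tested genes, and 11 genes were called at a 2-fold rule, against 1.56% of tested genes. With 0.2 taken as that coefficient in edgeR, 6 genes were called higher, against 0.944%. Ifit1 rose most, from 54.3 CPM in WT IL-4 to 183 CPM in cKO IL-4 (1.73, 95% limits 1.65 to 1.82). Oasl1 rose from 48.7 to 157 CPM (1.67, 95% limits 1.58 to 1.76) and Rsad2 from 72.3 to 214 CPM (1.55, 95% limits 1.48 to 1.63). All 4 IFIT genes were called, with 1.47 for Ifit3, 1.19 for Ifit2 and 1.14 for Ifit3b.

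Mx1 was at 1.53 (95% limits 1.43 to 1.64) and Mx2 at 1.10, Cmpk2 at 1.48, Isg15 at 1.28 (95% limits 1.19 to 1.37) with 1420 and 3210 counts, Zbp1 at 1.00 and Herc6 at 0.94. The sensors Ddx58, Dhx58, Ifih1 and Eif2ak2 were called with 0.57 to 0.81, Ifih1 standing at 104 and 167 CPM. Parp14 rose from 441 to 787 CPM (0.84, 95% limits 0.80 to 0.87), and Ifi44, Usp18, Xaf1, Oas2, Rtp4 and Oasl2 by 0.76 to 0.84. Ifi35 was at 0.56 and Oas3 at 0.57. The smallest calls were those of Oas1g (0.29), Oas1a (0.32), Adar (0.35), Parp9 (0.43) and Samd9l (0.46, 95% limits 0.40 to 0.51). Isg20 was called from 109 and 152 counts, with limits of 0.19 to 0.79.

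The 4 genes not called after IL-4 were Dtx3l (0.24), Samhd1 (0.13), Bst2 (0.13) and Ifitm3 (0.03, 95% limits -0.01 to 0.07). Ifitm3 stood at 346 CPM in WT IL-4 and 354 CPM in cKO IL-4. The neutrophil markers were also higher in cKO than in WT in this pair, at 525 and 391 CPM, led by S100a9. In NT, where Mmp8 led and 3 of the 9 reached 10 counts, they were nearly level and the interferon set was lower in cKO. The part of other cells in the differences was not tested.

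Against untreated cells, LPS raised 33 of the 35 genes at least 2-fold in WT and 35 of 35 in cKO, against 10.5% of 12813 and 13.2% of 12666 tested genes called higher, and no member was called lower in either, against 32.8% and 32.8% of tested genes. All genes together had medians of -0.58 in WT and -0.55 in cKO under library totals and -0.07 and -0.07 under median ratios, where the members' medians were 2.23 and 4.16. With median ratios 35 of 35 were called in WT, and the split of calls over all genes moved from 24.2% to 49.3% higher in WT and from 28.6% to 51.4% in cKO.

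The median LPS response was 1.62 in WT (3.08-fold) and 3.59 in cKO (12.0-fold). In WT the largest responses were those of Oasl1 (4.36, 95% limits 4.29 to 4.42), Mx1 (4.27, 95% limits 4.22 to 4.31) and Rsad2 (4.19, 95% limits 4.16 to 4.21), at 20.5-, 19.2- and 18.2-fold. Cmpk2 (4.17), Isg20 (3.93), Mx2 (3.85) and Ifit1 (3.81) were close behind. Ifit2 was at 3.27, Isg15 at 3.41, Ifih1 at 2.77, Parp14 at 1.52, Ifitm3 at 1.45 and Samd9l at 1.22. The 2 genes under 2-fold were Rtp4 (0.82) and Oas3 (0.56, from 522 to 769.6 CPM).

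In cKO the largest responses were those of Rsad2 (7.07, 95% limits 7.01 to 7.13, 134-fold), Cmpk2 (6.54, 95% limits 6.46 to 6.62) and Ifit2 (6.38, 95% limits 6.32 to 6.45). Ifi44 was at 6.35, Mx1 at 6.20, Oasl1 at 6.09, Isg15 at 4.90, Ifih1 at 4.35, Parp14 at 3.59, Samd9l at 2.66 and Ifitm3 at 1.53, the lowest. The response was the larger one in cKO for all 35 genes, by a median of 1.44 and by 0.08 (Ifitm3) to 3.12 (Ifit2) on the log2 scale. This difference equals that of the genotype effects in LPS and in NT and was not tested, as there is 1 library per group. LPS levels were close in both genotypes, so the larger fold in cKO goes with the lower untreated level.

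**Figure D3:**
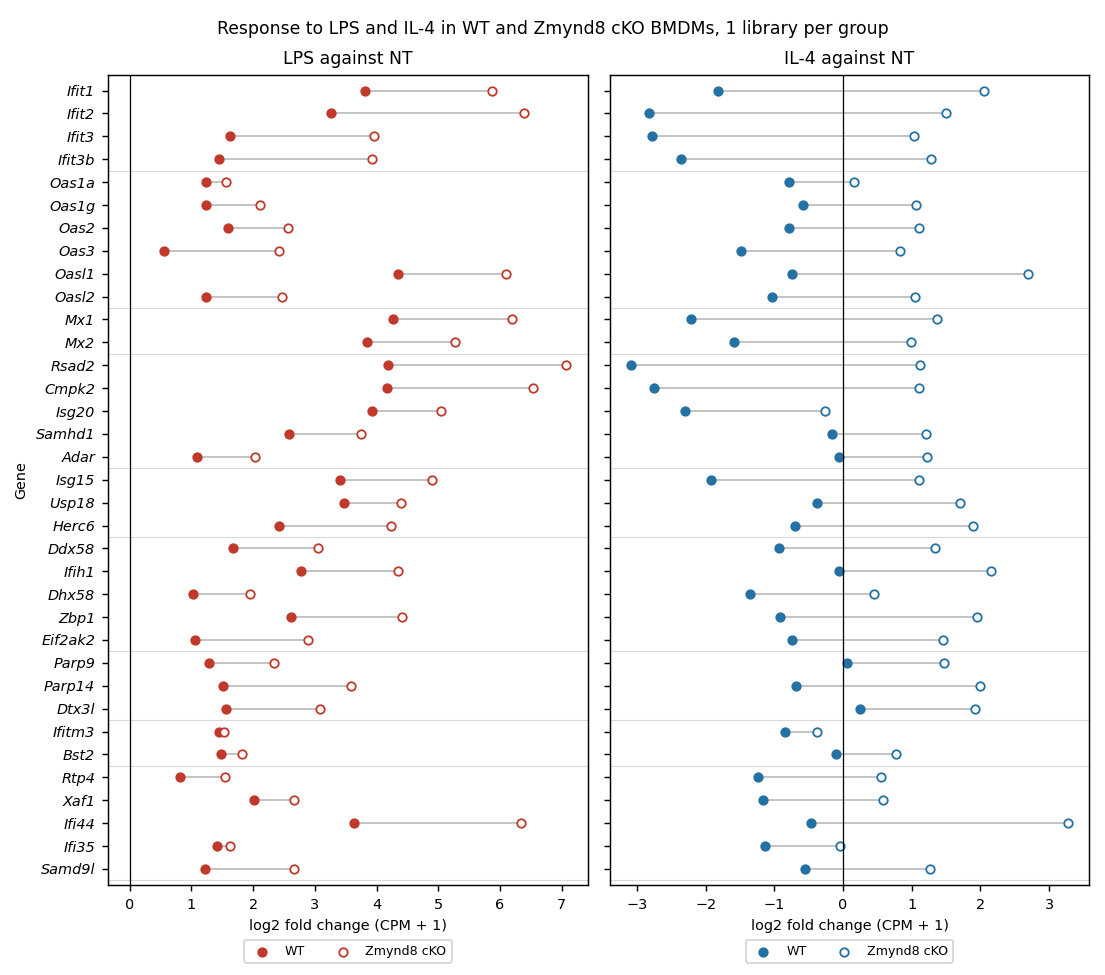
Log2 fold change (CPM + 1) against NT for each gene after LPS (left) and IL-4 (right), filled for WT and open for Zmynd8 cKO, 1 library per group, a grey line joining the 2 genotypes. Every open point lies to the right of its filled point, and after IL-4 most filled points lie left of 0 and most open points right of it.

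After IL-4 the counts were opposite in the genotypes. The NT, LPS and IL-4 pairs were deposited in separate tables, and library titles number the IL-4 pair apart from the other pairs. The part of any difference in preparation was not tested. In WT, 16 genes were called lower after IL-4 and none higher, against 6.19% and 10.0% of 13090 tested genes, with a median of -0.92 (1.90-fold lower). In cKO, 25 were called higher and none lower, against 15.0% and 6.09% of 12966, with a median of 1.21 (2.32-fold higher). The medians of all genes were 0.15 and 0.17 and became 0.00 and 0.00 under median ratios, where 19 members were called lower in WT and 18 higher in cKO. That scaling moved the share of higher calls over all genes from 61.9% to 50.9% in WT and from 71.2% to 58.9% in cKO.

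In WT the lowest were Rsad2 (-3.08, 95% limits -3.15 to -3.02), Ifit2 (-2.82, 95% limits -2.88 to -2.76) and Ifit3 (-2.79, 95% limits -2.85 to -2.73). Cmpk2 (-2.76), Ifit3b (-2.36), Isg20 (-2.30), Mx1 (-2.21), Isg15 (-1.93), Ifit1 (-1.82) and Mx2 (-1.59) followed, and Oas3, Dhx58, Rtp4, Xaf1, Ifi35 and Oasl2 were called between -1.49 and -1.03. Not called were, among others, Oasl1 (-0.75), Parp14 (-0.68), Ifitm3 (-0.85), Samd9l (-0.56) and Ifih1 (-0.06). Adar, Bst2, Samhd1 and Dtx3l stayed within 0.25 of 0, and so did Parp9, whose sign turned with the scaling (0.05 by totals and -0.11 by median ratios).

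In cKO the highest were Ifi44 (3.27, 95% limits 3.01 to 3.54), Oasl1 (2.69, 95% limits 2.57 to 2.82) and Ifih1 (2.15, 95% limits 2.04 to 2.25). Ifit1 (2.06), Parp14 (1.99), Zbp1 (1.95), Dtx3l (1.92), Herc6 (1.90) and Usp18 (1.70) were next, and Ifit2 was 2.83-fold higher, with Mx1 at 1.37, Samd9l at 1.27, Rsad2 at 1.12 and Isg15 at 1.11. Ifitm3 (-0.39), Isg20 (-0.26) and Ifi35 (-0.05) were not called. The fold in cKO was above that in WT for all 35 genes, by 0.47 (Ifitm3) to 4.32 (Ifit2), a difference that was not tested. It equals the difference of the genotype effects in IL-4 and in NT, so it is not a further result. In levels, cKO IL-4 stood below WT NT for 23 genes and above it for 12: Oas2, Oasl1, Usp18, Ifih1, Herc6, Zbp1, Ifi44, Bst2, Parp9, Parp14, Dtx3l and Adar.

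The genes that make and relay the interferon signal were taken as a list of 58: 21 ligands, 9 receptors and kinases, 9 STAT and IRF factors, 13 upstream sensors and adaptors and 6 negative regulators. In NT, 35 had enough counts to be tested, and 21 were called lower in cKO and 2 higher, against 25.9% and 21.7% of all tested genes, with a median of -0.39. The factors that bind the ISRE were among the lower ones: Stat2 at -1.51 (95% limits -1.57 to -1.44) and Irf9 at -0.39. Irf7, which amplifies interferon production and is itself interferon-stimulated, stood at 503 CPM in WT NT and 144 CPM in cKO NT (-1.80, 95% limits -1.86 to -1.75). Irf3 was called higher (0.27). Of the kinases, Jak1 (-0.44), Jak2 (-0.87) and Tyk2 (-0.40) and the receptor gene Ifnar1 (-0.32) were called lower.

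After LPS, 37 of the 58 were tested, 3 were called higher in cKO and 4 lower, against 17.1% and 8.76% of all tested genes. Of 21 ligand genes only Ifnb1, the interferon-beta gene, had enough counts, and it was called lower with 61 counts in WT LPS and 28 in cKO LPS (-0.65, 95% limits -1.04 to -0.24). Ifnb1 had 0 counts in both NT libraries, which allows up to 3 counts each, and it is named because it is the 1 ligand called, having been chosen after its values were seen. Jak2 was higher (0.34) and Irf8 lower (-0.32). After IL-4, 8 of 37 were called higher and 3 lower, against 13.8% and 10.5% of all tested genes, among them Stat2 (0.59, 95% limits 0.54 to 0.64) and the receptor inhibitors Socs1 (0.52) and Socs3 (1.68), all higher in cKO. The 3 lower ones were the LPS receptor gene Tlr4 (-0.46) and the adaptor genes Ticam2 (-0.35) and Mavs (-0.30). Irf7 was not called and stood at 449.8 CPM in WT IL-4 and 408 CPM in cKO IL-4 (-0.14, 95% limits -0.18 to -0.10), nor was Irf9 called (0.15). No ligand gene reached the filter in NT or IL-4.

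Other lists were set beside the interferon set. In NT, 9 of 14 interferon-gamma and MHC class II genes were called lower and 2 higher, and of 13 tested NF-kB target genes 2 were called lower and 2 higher, with a median of -0.02, against 25.9% of all tested genes called lower and 21.7% higher. Of 13 housekeeping genes, 7 were called higher and 1 lower in the same pair, with a median of 0.28. After LPS, 11 of 15 NF-kB target genes were called higher and none lower (median 0.42), against 17.1% and 8.76% of all tested genes. After IL-4, 15 of 15 NF-kB target genes were called higher (median 1.36), and 7 of 14 interferon-gamma and MHC class II genes were called higher and 6 lower, against 13.8% and 10.5% of all tested genes. None of 13 housekeeping genes was called in that pair (median 0.03).

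In the Zmynd8 lines, D/E-A against WT Zmynd8 had 21 members higher by at least 1.2-fold, 7 lower and 7 within the rule, against 36.7% of 12771 genes higher and 35.9% lower. The median was 0.37 (1.29-fold) against 0.02 over all genes. The members' summed share of reads was 3.52% in WT Zmynd8 and 4.82% in D/E-A. Of 13 housekeeping genes, 6 were higher and 2 lower in D/E-A, with a median of 0.23. The neutrophil markers and the 18S RNA were lower in D/E-A than in WT Zmynd8 in the same pair, and their part in these values was not tested, nor was that of the B cell markers, which were level at 204 CPM. Values in these tables are reads times a size factor of each table and are compared within a table only.

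Cmpk2 had the largest fold change, with values of 23158 in WT Zmynd8 and 67627 in D/E-A (1.55, 95% limits 1.52 to 1.57, 2.92-fold). Ifit2 had 31443 and 84131 (1.42, 95% limits 1.40 to 1.44) and Ifih1 7605 and 19482 (1.36, 95% limits 1.32 to 1.40). Samd9l (1.16), Ddx58 (1.03), Parp14 (0.96), Mx1 (0.95), Ifi44 (0.92), Dtx3l (0.87) and Parp9 (0.82) came next. Rsad2, the member with most reads, had 132617 and 211189 (0.67, 95% limits 0.66 to 0.68).

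The 7 lower genes were Oas1g, Bst2, Ifi35, Oas1a, Ifitm3, Isg15 and Ifit3. Oas1g had 8284 in WT Zmynd8 and 4011 in D/E-A (-1.05, 95% limits -1.10 to -0.99), the only member lower by over 2-fold. Bst2 had 21643 and 11640 (-0.89, 95% limits -0.93 to -0.86) and Ifi35 8960 and 6092 (-0.56, 95% limits -0.60 to -0.51). Ifitm3 was at -0.47, Isg15 at -0.43 and Ifit3 at -0.29, while Oasl1 was at 0.02 (-0.01 under library totals) with 32688 and 33157. The IFIT family thus split, with Ifit2 higher, Ifit3 lower and Ifit1 and Ifit3b within the rule (0.18 and -0.14).

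Zmynd8 KO against the same WT Zmynd8 library had 18 members higher, 2 lower and 15 within the rule, against 33.8% of 21302 genes higher and 36.5% lower, with a median of 0.31. As this comparison shares its control with that of D/E-A, the values are given side by side only. Cmpk2 had 24717 and 55638 (1.17, 95% limits 1.15 to 1.19), Ifit2 33560 and 59836 (0.83, 95% limits 0.81 to 0.85) and Ifih1 8117 and 14400 (0.83, 95% limits 0.79 to 0.87). Samd9l was at 0.69, Mx1 at 0.44, Rsad2 at 0.35 and Parp14 at 0.35. The 2 lower genes were Oas1g (-0.53, 95% limits -0.58 to -0.49) and Bst2 (-0.29, 95% limits -0.32 to -0.26), and Isg15 (-0.14), Ifitm3 (-0.16) and Oasl1 (0.10) were within the rule. Under library totals 4 members were lower and 16 higher, against 8408 and 6327 of 21302 genes, and the members' median was 0.24.

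Ifnb1 had 439 reads in WT Zmynd8, 283 in Zmynd8 KO and 116 in D/E-A, the log2 fold changes in Zmynd8 KO and D/E-A being -0.75 (95% limits -0.97 to -0.53) and -1.84 (95% limits -2.15 to -1.55). These comparisons share the WT Zmynd8 library. Stat2 was at 0.74 in D/E-A and 0.33 in Zmynd8 KO. Jak2 was at 1.02 and 0.56, and Socs1 at 1.04 and 0.96. Of the 58 pathway genes, 39 were listed and tested for D/E-A, with 24 higher and 4 lower, against 36.7% and 35.9% of all tested genes. For Zmynd8 KO 40 were tested, with 23 higher and 4 lower, against 33.8% and 36.5%.

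**Figure D4:**
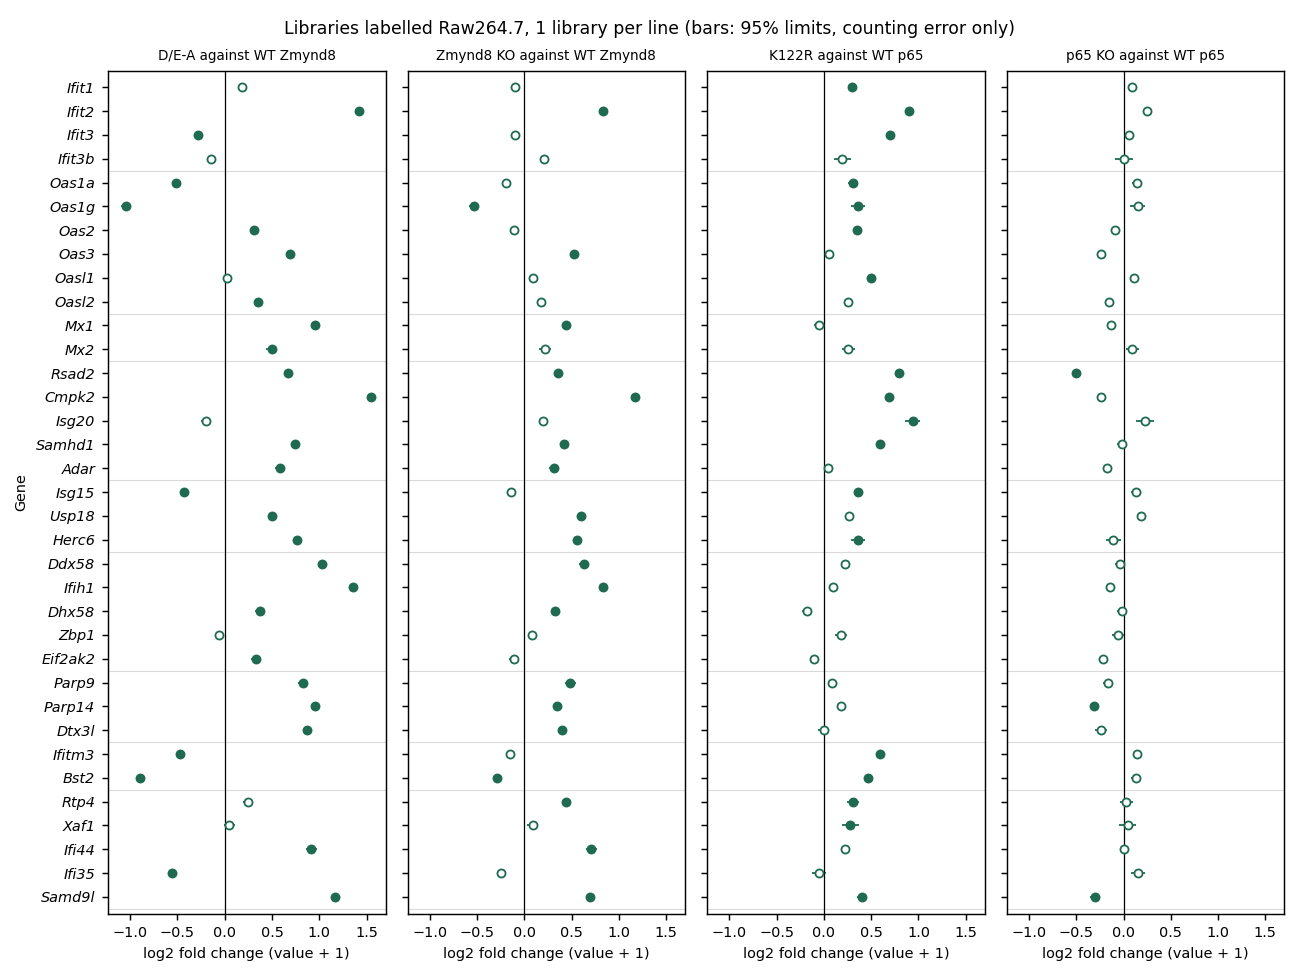
Log2 fold change (deposited value + 1) of the 35 genes in the 4 comparisons of libraries labelled Raw264.7, 1 library per line. Bars are 95% limits for counting error only, and filled points passed 1.2-fold. The D/E-A panel spreads from -1.05 (Oas1g) to 1.55 (Cmpk2), and the p65 KO panel stays within -0.50 and 0.25.

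In the p65 lines, all labelled as LPS-treated, K122R against WT p65 had 18 members higher by at least 1.2-fold, none lower and 17 within the rule, against 30.8% of 19670 genes higher and 32.5% lower. The median was 0.28 against 0.01 over all genes. This count depends on the scaling: under library totals, where the median of all genes moved to -0.17, 9 members were higher and 1 lower. Of 19834 genes, 4376 were higher and 8618 lower under that scaling. The members' median was 0.14, and 33.7% instead of 48.6% of calls over all genes were higher. The members' summed share of reads was 2.44% in WT p65 and 3.02% in K122R. By the deposited values, 6 of 13 housekeeping genes were higher and 0 lower in the same pair, with a median of 0.25.

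Isg20 had the largest fold change, with values of 1845 in WT p65 and 3539 in K122R (0.94, 95% limits 0.86 to 1.02). Ifit2 had 12860 and 23947 (0.90, 95% limits 0.87 to 0.93) and Rsad2 70060 and 121229 (0.79, 95% limits 0.78 to 0.80). Ifit3 (0.70), Cmpk2 (0.69), Samhd1 (0.60), Ifitm3 (0.59), Oasl1 (0.50) and Bst2 (0.46) followed, and Samd9l, Herc6, Isg15, Oas1g, Oas2, Oas1a, Rtp4, Ifit1 and Xaf1 passed the rule between 0.28 and 0.40. No MX, sensor or PARP member passed it: Mx1 was at -0.05, Ifih1 at 0.09 and Parp14 at 0.18. Irf7 was higher in K122R (0.63), and 10 of 14 interferon-gamma and MHC class II genes were higher and none lower, with a median of 0.75. Rela had 1601 reads in WT p65 and 5850 in K122R, and its part in these values was not tested.

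p65 KO against WT p65 had no member higher, 3 lower and 32 within the rule, against 26.3% of 19879 genes higher and 25.7% lower, with a median of -0.02. Rsad2 had 70207 in WT p65 and 49557 in p65 KO (-0.50, 95% limits -0.52 to -0.49), Parp14 24759 and 19903 (-0.31, 95% limits -0.34 to -0.29) and Samd9l 6815 and 5514 (-0.31, 95% limits -0.36 to -0.25). Ifit2 was at 0.25, Isg15 at 0.13, Ifitm3 at 0.14, Oasl1 at 0.11, Mx1 at -0.13, Ifih1 at -0.14 and Cmpk2 at -0.24.

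Transcript length was set beside the fold changes after their values were seen. The longest annotated transcript (GENCODE vM21) of the members ran from 678 bases (Ifitm3) to 7417 bases (Parp14), and 88.6% of tested genes in D/E-A and 99.8% in each comparison of cKO with WT had a length. After LPS, the Spearman correlation of length and log2 fold change of cKO against WT was 0.77 over the 35 genes and 0.34 over all genes with a length, values that share their 2 libraries. The 3 members under 1000 bases (Isg15, Ifitm3 and Bst2) had a median of -0.35 and the 10 of at least 4000 bases a median of 0.10, where all genes of these lengths had -0.10 and 0.16. D/E-A against WT Zmynd8 had 0.77 over the members and 0.48 over all genes, with medians of -0.47 and 0.82 in these classes of members and -0.83 and 0.41 in those of all genes. In both comparisons short members were thus low and long members high, as were short and long genes at large, and the part of length in the calls was not tested. In the other lines all 35 members had a length, and their correlations were 0.56 in Zmynd8 KO, -0.33 in K122R and -0.79 in p65 KO, where the 3 genes past the rule were 4189 (Rsad2), 5330 (Samd9l) and 7417 bases (Parp14) long. In these 3 comparisons the check over all genes was void, because 76.5%, 76.3% and 76.6% of tested genes had a length.

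In NT the trend over all genes ran the other way, -0.52, with medians of 0.46 under 1000 bases and -0.27 from 4000 bases, and over the members it was -0.27. The members of these classes had medians of -0.75 and -1.64, below those of all genes in the same classes, and the part of length was not tested. After IL-4 the correlations were 0.00 over the members and -0.12 over all genes, and the members' medians of 0.13, 0.56, 1.00 and 0.62 from the shortest to the longest class stood above those of all genes, which ran from -0.02 to 0.06, and here too the part of length was not tested. For IL-4 against NT the correlations were 0.36 over the members and 0.08 over all genes in WT, and 0.59 and 0.31 in cKO. For LPS against NT they were -0.08 and -0.13 in WT, and 0.19 and 0.15 in cKO.

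**Figure D5:**
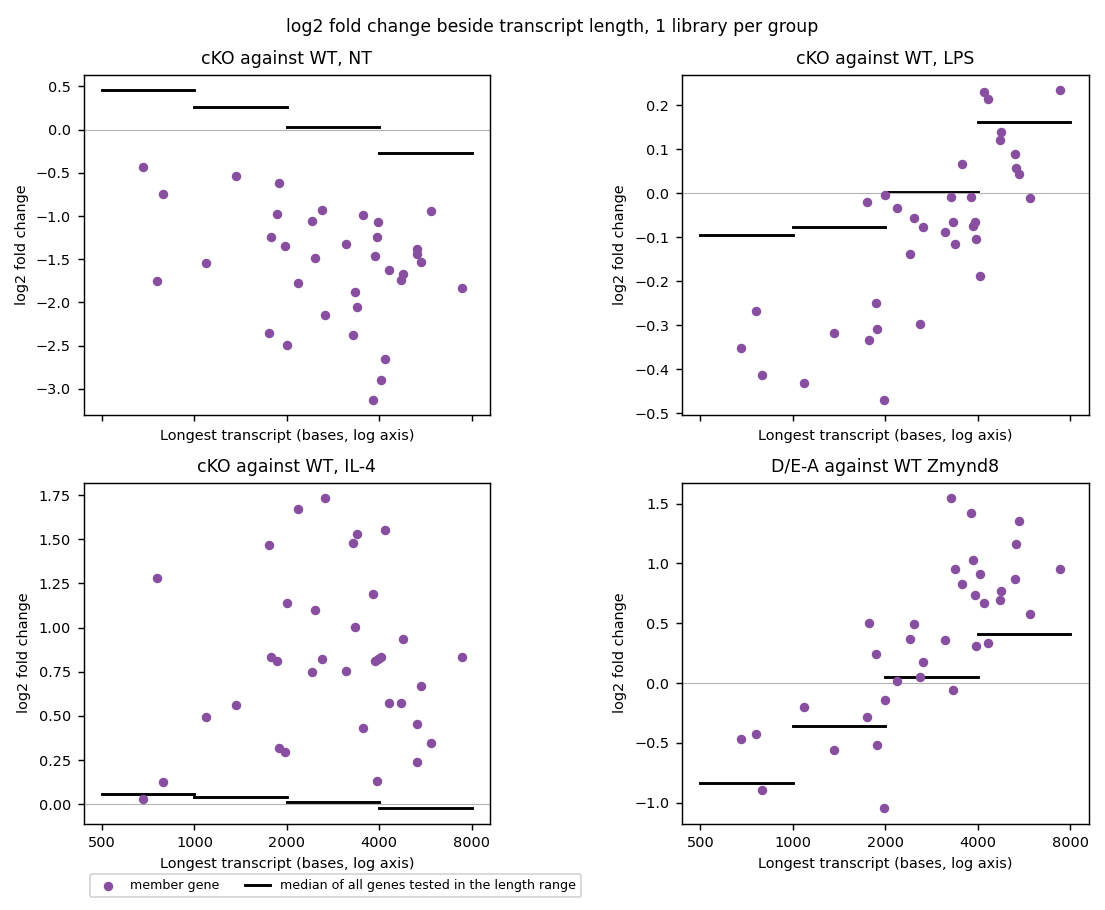
Log2 fold change of each member (points) against the length of its longest transcript (log axis), with the median of all tested genes in 4 length ranges (bars), in 4 comparisons with 1 library per group. In LPS and D/E-A the members climb with length alongside the bars, in NT all members lie below the bars, and in IL-4 all but Ifitm3 lie above them.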

How the data were processed

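RNA-seq libraries of 6 BMDM groups and 6 lines labelled Raw264.7 were used, 1 library per group. The other 35 of 47 samples were not used here. Per the study's methods, polyA RNA was sequenced and aligned to mm10 with TopHat; the submitters' processing notes also name CASAVA 1.4 and Bowtie 0.12.2. For BMDMs the authors deposited estimated counts per gene, of which about 75.2% to 76.6% of those above 0 were whole, and TPM values scaled to transcript length. For the lines the authors deposited a signal per gene that was a whole number of reads times 1 size factor per library and table. Within 0.1 of a read, 99.996% of values in Zmynd8 KO and 100% in every other column were whole.

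Estimated counts were rounded and divided by column totals (CPM), leaving out 431, 431 and 2 entries without counts. Fold changes were log2 of (CPM + 1) or of (deposited value + 1), and genes entered with 10 or more counts, or a value of 1 or more, as the mean of both libraries. BMDM reads were compared by a two-sided exact binomial test with Benjamini-Hochberg adjustment over all genes tested, and 95% limits were Clopper-Pearson limits. On the recovered reads of the lines the same test with the fold rule called 4187 genes higher and 3654 lower in D/E-A, 3832 and 2851 in the Zmynd8 KO line, 2554 and 2665 in K122R and 1283 and 1337 in p65 KO. Comparisons with the same control library are given side by side only. Alternatives were another pseudocount, filter, scaling (DESeq2 1.42.0 size factors, edgeR 4.0.16 TMM, or library totals), fold rule and, in edgeR, an exact test that assumes 0.2 as biological coefficient of variation. Python 3.11.15, scipy 1.17.1 and R 4.3.3 were used. The call rule was run on counts simulated from the NT pair with counting error only. This run cannot speak to the spread between animals or cultures.

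The members and the gene lists were chosen with earlier results of these data known. Named with full values were, per comparison, up to 3 called members at each end with a mean of at least 100 counts or reads and, for each role group, the member with most counts. Columns holding the authors' own fold changes and p-values were not used, nor were 2 columns of values that could not be tied to a sample.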

Additional observations from a re-analysis of the deposited data

Results flagged for a closer look

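The difference between cKO and WT changed direction between NT and IL-4. The median log2 fold change of cKO against WT was -1.48 in NT, -0.065 after LPS and 0.81 after IL-4. With 1 library per group none of these differences could be tested.

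For 31 genes the call was lower in cKO in NT and higher after IL-4, as for 3.68% of the 12118 genes tested in both. The difference of the log2 fold changes, IL-4 minus NT, was largest at 4.32 for Ifit2, 4.21 for Rsad2, 3.88 for Ifit1, 3.86 for Cmpk2, 3.82 for Ifit3, 3.74 for Ifi44, 3.63 for Ifit3b, 3.58 for Mx1, 3.44 for Oasl1 and 3.03 for Isg15. It followed with 2.88 for Zbp1, 2.67 for Parp14, 2.60 for Herc6, 2.59 for Mx2, 2.32 for Oas3, 2.28 for Ddx58, 2.20 for Ifih1, 2.19 for Eif2ak2, 2.08 for Oasl2, 2.08 for Usp18 and 2.04 for Isg20. The remaining values were 1.89 for Oas2, 1.83 for Samd9l, 1.81 for Dhx58, 1.79 for Rtp4, 1.76 for Xaf1, 1.64 for Oas1g, 1.42 for Parp9, 1.28 for Adar, 1.09 for Ifi35 and 0.94 for Oas1a.

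For 7 genes the call was lower in cKO after LPS and higher after IL-4, as for 1.17% of the 11753 genes tested in both. The difference, IL-4 minus LPS, was 1.55 for Isg15, 1.17 for Usp18, 1.12 for Xaf1, 0.93 for Isg20, 0.88 for Ifi35, 0.76 for Oas1g and 0.63 for Oas1a. These differences were not tested either.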

How the results depend on the processing

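No paired analysis was possible because each group has 1 library, and for the same reason no replicate could be left out and DESeq2's test could not be fitted. Of 175 counts and medians of the set under the alternatives, 147 kept their value within the limits used (1.5 times for a count) and 28 moved, and none reversed. Of 2555 values of single members, 2343 kept their call, 174 lost it and 38 gained one. An assumed biological coefficient of variation of 0.2 in edgeR left 21 members lower in NT, 0 lower in LPS and 6 higher in IL-4. A fold rule of 2 left 0 lower in LPS and 11 higher in IL-4. In D/E-A it left 5 higher and 1 lower, against 886 and 1459 of 12771 genes. In Zmynd8 KO it left 1 higher and 0 lower, against 1765 and 3695 of 21302. In K122R it left 0 higher, against 2066 of 19670, and in p65 KO 0 lower, against 1309 of 19879. A fold rule of 1.2 gave 29 lower and 0 higher after IL-4 in WT, against 2837 and 5055 of 13090 genes. In cKO it gave 31 higher and 1 lower, against 5470 and 3216 of 12966. Median ratio and TMM scaling moved the members' median to -0.12 and -0.11 for cKO against WT in LPS, 2.23 and 2.30 for LPS in WT, 4.16 and 4.20 for LPS in cKO, -1.09 and -1.08 for IL-4 in WT, and 1.02 and 1.02 for IL-4 in cKO. Library totals gave 4 lower and a median of 0.24 in Zmynd8 KO, and 9 higher, 1 lower and a median of 0.14 in K122R. Each scaling acts on all genes of a comparison at once. Signs turned with the scaling only for members that were not called: Ifih1 in LPS, Parp9 after IL-4 in WT, Oas1a after IL-4 in cKO (-0.04), Oasl1 in D/E-A, and Oas3, Ifih1, Parp9, Dtx3l and Adar in K122R. Depth was not the limit for most members, whereas the spread between animals or cultures was not measured.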
